A study of Rattus norvegicus with 6 samples.

Results

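The vascular and mural cell miRNAs described here are the rows of the deposited table that carry the names rno-miR-126a, miR-143, miR-145, miR-199a or miR-214 with any arm suffix. These are 10 arms of 5 hairpins among 1465 rows, with 2 endothelial arms (miR-126a) and 8 smooth muscle and pericyte arms (miR-143, miR-145, miR-199a and miR-214). Each hairpin, the folded precursor, gives a 5p and a 3p arm. Small RNA from rat medial prefrontal cortex, a frontal brain area, was sequenced in 6 libraries, 3 per group. Control rats lived for 4 weeks with nothing but handling and routine cage care, and CMS rats were exposed over the same 4 weeks to chronic mild stress, a random sequence of restraint, tail clipping, cage tilt, foot shock, cold swimming, reversed lighting and withheld food or water. No transgene, drug or surgery is named for either group, and the sources used here do not give strain, sex or age.

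MicroRNAs (miRNAs) are short RNAs that guide Argonaute proteins to messenger RNAs, mainly through the seed, bases 2 to 8 from the 5′ end, and lower their output. The miRNA miR-126 lies in the endothelial gene Egfl7 and, in mouse and zebrafish, supports vessel integrity by restraining inhibitors of VEGF signalling. The miR-143 and miR-145 pair is made from 1 primary transcript, is abundant in smooth muscle and, in mouse, holds vascular smooth muscle in its contractile state. The miR-199a and miR-214 pair comes in mouse from a transcript antisense to Dnm3 and is typical of mesenchymal cells such as fibroblasts and pericytes. In cortex these miRNAs are generally read as products of blood vessels and their coverings, not of neurons.

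All 10 arms matched a mature sequence by name in RefSeq's table of the rat assembly GRCr8. They are shown because the results turn on which arm of a hairpin is present, and the arms of a hairpin carry different seeds. Sequences run 5′ to 3′ with the seed in capitals.
miR-126a-3p: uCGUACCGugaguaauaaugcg
miR-126a-5p: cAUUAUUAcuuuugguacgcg
miR-143-3p: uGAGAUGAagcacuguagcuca
miR-143-5p: gGUGCAGUgcugcaucucugg
miR-145-5p: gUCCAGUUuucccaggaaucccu
miR-145-3p: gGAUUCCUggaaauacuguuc
miR-199a-3p: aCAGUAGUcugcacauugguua
miR-199a-5p: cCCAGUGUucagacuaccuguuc
miR-214-3p: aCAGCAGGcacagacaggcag
miR-214-5p: aGAGUUGUcaugugucu

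No member shared its seed with another member or with any other of the 693 mature miRNAs in that table. In GRCr8, miR-126a-3p lies at chr3:29813219-29813240 on the plus strand within Egfl7. The main arm miR-143-3p lies at chr18:57371373-57371394 and miR-145-5p at chr18:57370033-57370055, both on the minus strand and within Carmn, a long noncoding RNA gene. The arm miR-199a-3p lies at chr13:77116294-77116315 and miR-214-3p at chr13:77121713-77121733, both on the plus strand within the span of Dnm3. The sources used here do not name the build behind the deposited values, so these positions belong to the reference table alone. On the strand opposite miR-126a-5p the table places miR-126b, which overlaps it by 17 bases, all 17 complementary. The deposited table has 0 rows under the name miR-126b.

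The deposited values are normalized whole numbers, with library totals from 709674 to 736078. Because read depth is unknown, counting intervals are left out. The table holds 694 annotated and 771 predicted miRNAs, and blank cells were taken as 0. Differences between groups were tested with limma on log2(value + 1) for the 657 miRNAs that reached a value of 1 in 3 or more libraries, and a miRNA is called where the Benjamini-Hochberg adjusted p is under 0.05. In all, 27 miRNAs were called, or 4.11%. Neuronal markers fit the labelled tissue: the 8 listed arms of miR-9a, miR-124, miR-128 and miR-129 summed to 85770 to 117288 in Control and 96689 to 104681 in CMS libraries.

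The members made up 2.47% to 3.15% of each Control library and 2.72% to 4.18% of each CMS library. Nearly all of this was miR-143-3p and miR-126a-3p, which ranked 15 and 21 among the annotated miRNAs by mean value. At 11621 on average over 6 libraries, miR-143-3p was the highest member. It was followed by miR-126a-3p at 9054, miR-126a-5p at 1160.5, miR-145-5p at 557.5, miR-199a-3p at 125, miR-145-3p at 84.5, miR-143-5p at 51.8, miR-199a-5p at 33.3 and miR-214-3p at 1.5. This order was the same in all 6 libraries. Ranges over libraries nevertheless overlapped between miR-143-3p and miR-126a-3p, between miR-126a-5p and miR-145-5p, and between each neighbouring pair from miR-199a-3p down to miR-199a-5p. Values of different miRNAs are set side by side as deposited, and arms are 17 to 23 bases long, so no length correction was made. The fifth hairpin was nearly silent: miR-214-5p was blank in all 6 libraries, and miR-214-3p was listed at 1, 0 and 1 in Control and at 4, 3 and 0 in CMS.

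**Figure D1:**
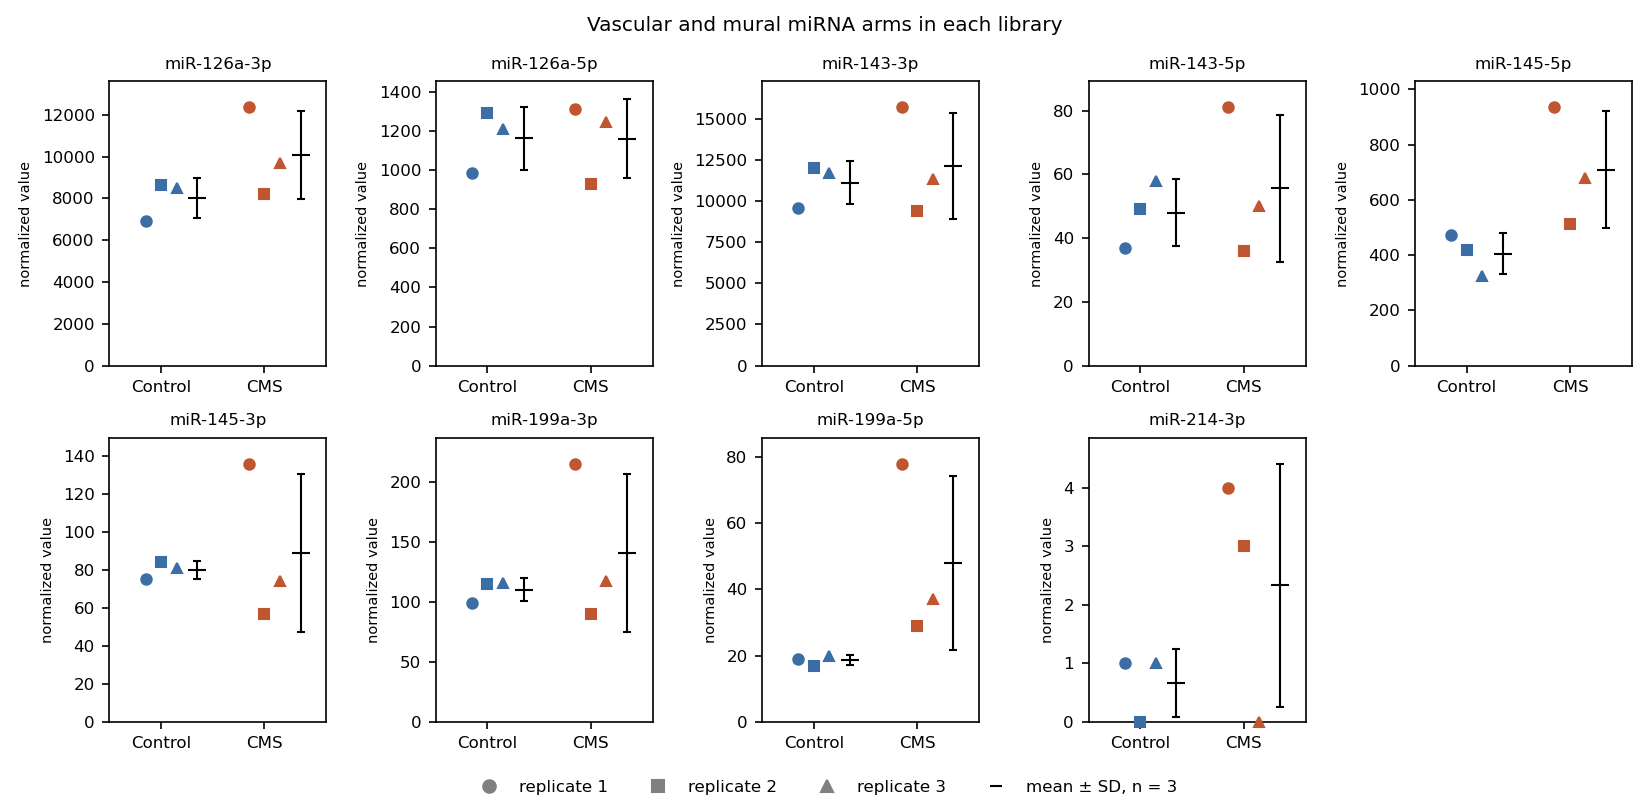
Normalized value (linear axis from 0) of 9 member arms in each Control and CMS library, with replicates as symbols and the mean ± SD (n = 3) as bars. CMS 1 is the highest CMS library in all 9 panels, and the groups are apart for miR-145-5p and miR-199a-5p.

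The first question is whether the endothelial miRNA differed between CMS and Control rats. The arm miR-126a-3p, which carries the known targeting activity against VEGF pathway inhibitors, was at 6924, 8633 and 8494 in the Controls and at 12358, 8224 and 9692 in CMS. Its groups overlapped, because CMS 2 lay below Controls 2 and 3. The means were 8017 ± 949 and 10091 ± 2096 (SD, n = 3 each), and the log2 difference of 0.32 ± 0.18 (SE) had a 95% interval from -0.12 to 0.76 (limma adjusted p = 0.307). It was 0.16 without CMS 1 and ran from 0.16 to 0.46 over the libraries left out. The other arm, miR-126a-5p, was at 982, 1293 and 1208 in Control and at 1309, 928 and 1243 in CMS. Its group means were nearly equal at 1161 ± 161 and 1160 ± 203.6, with an interval of the log2 difference from -0.45 to 0.44 (limma adjusted p = 1). In bulk tissue, fewer cells of a type and less RNA per cell cannot be told apart, for this and for every level below.

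Among the smooth muscle and pericyte members, the most abundant, miR-143-3p, was at 9601, 12019 and 11706 in Control and at 15683, 9402 and 11314 in CMS. Control values all lay between the lowest and the highest CMS library. The means were 11109 ± 1315 and 12133 ± 3220, with a log2 difference of 0.10 ± 0.21 and an interval from -0.42 to 0.62 (limma adjusted p = 0.818), and the difference was -0.0068 after trimmed-mean rescaling. Its minor arm miR-143-5p was at 37, 49 and 58 in Control and at 81, 36 and 50 in CMS (limma adjusted p = 0.821).

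The second hairpin of that cluster gave another picture. Its main arm miR-145-5p, which in human and mouse cells represses the stem cell and dedifferentiation factor Klf4, was at 473, 417 and 326 in Control and at 935, 514 and 680 in CMS. Every CMS library lay above every Control library. The CMS mean was 1.75-fold higher, at 710 ± 212 against 405 ± 74.2, with a log2 difference of 0.78 ± 0.26 (interval 0.14 to 1.42), which missed the threshold after adjustment over all miRNAs (unadjusted p = 0.0241, limma adjusted p = 0.145). The passenger arm miR-145-3p was at 75, 84 and 81 in Control and at 136, 57 and 74 in CMS. Here CMS libraries stood on both sides of the Controls, and the log2 difference of 0.06 ± 0.32 turned negative with trimmed-mean rescaling and with quantile normalization (-0.05 in each).

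In the miR-199a hairpin the 3p arm was at 99, 115 and 116 in Control and at 215, 90 and 117 in CMS. The groups overlapped, with a mean of 110 ± 9.54 against 140.7 ± 65.8 (limma adjusted p = 0.652). The 5p arm, known in rat and mouse heart cells for repressing the hypoxia factor Hif1a, was at 19, 17 and 20 in Control and at 78, 29 and 37 in CMS. All 3 CMS values lay above the narrow Control range. The CMS mean was 2.57-fold higher, at 48 ± 26.3 against 18.7 ± 1.53, and the log2 difference of 1.19 ± 0.37 (interval 0.28 to 2.10) also missed the threshold (unadjusted p = 0.0189, limma adjusted p = 0.134). At so low a level the pseudocount understates the change. Between both groups miR-214-3p differed within its spread (limma adjusted p = 0.518).

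As a group, 0 of the 9 members tested were called by limma, against 4.11% of all 657 miRNAs, and 2 of 9 had an unadjusted p under 0.05, against 23.3% of all. All members are annotated, and limma on annotated miRNAs only called 11 of 468, with 0 of the 9 members among them. Groups did not overlap for 2 of 9 members, both higher in CMS, against 25.9% of all miRNAs. Those apart and higher in CMS were 19.6% of all miRNAs tested, 129 of the 170 that did not overlap. These shares are near the background. The log2 difference was positive for 8 of 9 members against 56.5% of all miRNAs, 6 of 9 with trimmed-mean rescaling or quantile normalization and 4 of 9 without CMS 1. The median over members was 0.26, beside 0.08 over all miRNAs tested, and it was -0.10 without CMS 1, beside 0.09 over all.

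**Figure D2:**
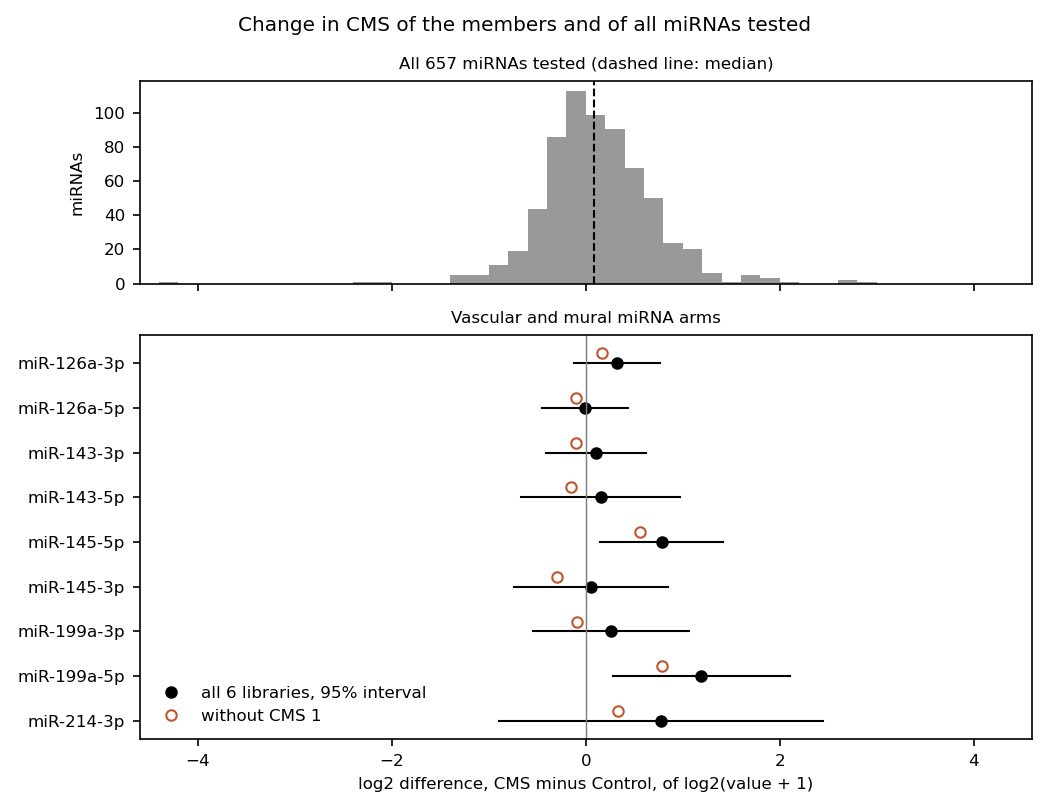
Difference between CMS and Control on the log2(value + 1) scale, as a histogram of all 657 miRNAs tested (top, dashed median at 0.08) and for 9 member arms with 95% intervals (bottom). Open circles give the value without CMS 1, which is lower for every member, and the intervals of miR-145-5p and miR-199a-5p lie above 0.

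Library CMS 1 weighed on these values. It was the highest CMS library for 9 of 9 members, where 36.4% of all miRNAs tested were highest in CMS 1. Against the other CMS libraries its members were higher by a median log2 difference of 0.92, from 0.29 for miR-126a-5p to 1.32 for miR-214-3p, beside a median of 0.08 over all miRNAs. The excess was 1.38-fold for miR-126a-3p and 1.51-fold for miR-143-3p, and 2.08-fold for both miR-145-3p and miR-199a-3p. CMS 2 was the lowest CMS library for 8 of 9 members, where 39.1% of all miRNAs were lowest there. Control 1 was the lowest Control for 6 of 9 members, where 38.1% of all miRNAs were lowest. Without CMS 1 the mean of the remaining CMS libraries was 1.47-fold the Control mean for miR-145-5p and 1.77-fold for miR-199a-5p, while it was 0.932-fold for miR-143-3p and 0.941-fold for miR-199a-3p (limma adjusted p from 0.159 to 0.785 for these arms without CMS 1).

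**Figure D3:**
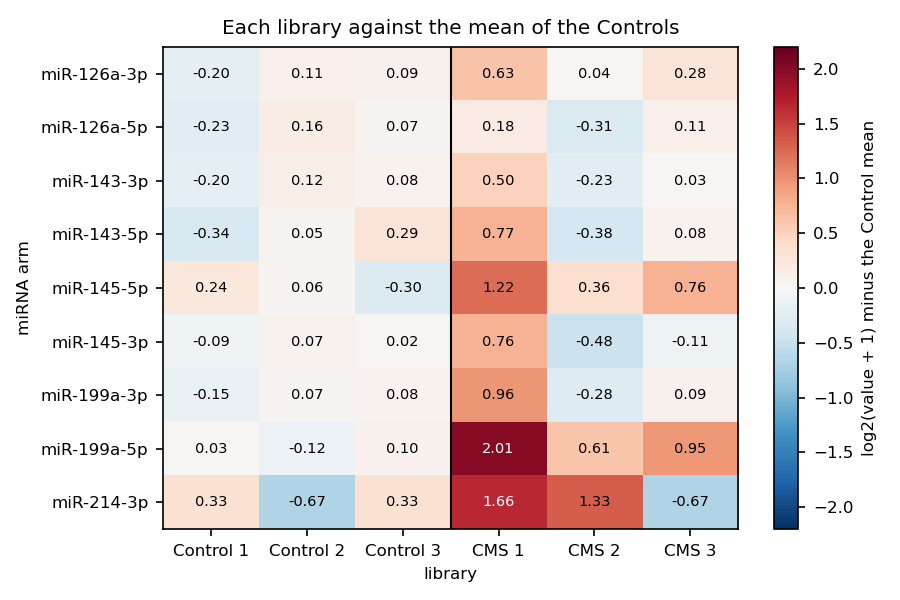
Value of 9 member arms in each library as log2(value + 1) minus the mean of the 3 Controls, from blue (lower) to red (higher). The CMS 1 column is positive in every row, from 0.18 for miR-126a-5p to 2.01 for miR-199a-5p, while CMS 2 and CMS 3 both exceed the highest Control only for miR-145-5p and miR-199a-5p.

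Markers of other cells that dissected cortex can hold were compared across the same libraries, and their counts stand beside 4.11% called and 23.3% at an unadjusted p under 0.05 over all miRNAs. Red blood cell miRNAs (5 listed arms of miR-144, miR-451 and miR-486, of which 4 were tested and 0 called) summed to 443 in CMS 1, 260 in CMS 2 and 328 in CMS 3, and to 177 to 351 in Control. Its arms went different ways: miR-451-5p, the erythroid miRNA that made up most of the sum in CMS 1, was at 64, 186 and 51 in Control and 303, 154 and 197 in CMS (limma adjusted p = 0.22), while the other 3 tested arms had negative log2 differences. Leukocyte miRNAs (10 arms, 8 tested, 0 called) summed to 1313 in CMS 1, 928 and 1230 in CMS 2 and CMS 3, and 873 to 904 in Control. In that list miR-223-3p, the myeloid marker, was listed at 0, 2 and 2 in Control and at 3, 1 and 3 in CMS. Its arms also went different ways, with positive log2 differences for 4 of the 8 tested. Most of the sum in CMS 1 was miR-150-5p, at 432, 427 and 412 in Control and 806, 588 and 727 in CMS. The arm miR-142-3p was at 9, 18 and 19 in Control and 6, 9 and 11 in CMS. Oligodendrocyte miRNAs (5 arms, all tested, 0 called) summed to 3160 in CMS 1, 1888 and 2213 in CMS 2 and CMS 3, and 1932 to 2177 in Control. Most of that sum in CMS 1 was miR-219a-2-3p, at 1567, 1347 and 1310 in Control and 2390, 1449 and 1613 in CMS. The arms of this list went different ways, with positive log2 differences for 2 of the 5 and a median of -0.07. These 3 sums were highest in CMS 1, as the members were. The neuronal list (8 arms, 7 tested) had its lowest CMS sum in CMS 1, at 96689, and 1 arm rose, the minor arm miR-128-1-5p, at 4, 3 and 5 in Control and 15, 13 and 10 in CMS (limma adjusted p = 0.0281). The abundant arm miR-128-3p was at 18158, 54214 and 54272 in Control and 28999, 16153 and 19969 in CMS (limma adjusted p = 0.319). Its mean was thus lower in CMS, and CMS 1 was its highest CMS library. Choroid plexus and epithelial miRNAs (15 arms, 8 tested, 0 called) had their lowest CMS sum in CMS 1, at 739, with 1303 and 999 in CMS 2 and CMS 3 and 704 to 1480 in Control. Most of this sum was 1 arm, miR-204-5p, at 664, 1243 and 922 in CMS 1 to 3. By contrast, miR-200b-3p (27, 11 and 24) and miR-200c-3p (5, 4 and 3) were highest in CMS 1 among the CMS libraries. Striated muscle miRNAs (10 arms, 5 tested, 0 called) ranged from 231 to 332 in CMS and from 272 to 454 in Control, with 231 in CMS 1. At an unadjusted limma p under 0.05 there was 1 red blood cell arm (miR-144-5p, lower in CMS), 1 leukocyte arm (miR-150-5p, higher), 2 choroid plexus and epithelial arms (miR-200b-3p and miR-200c-3p, both higher), 1 oligodendrocyte arm (miR-219a-5p, lower), 3 neuronal arms and 0 striated muscle arms. All 3 of these neuronal arms were higher in CMS. The part of all these cell types in the member levels was not tested.

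Arm ratios within a hairpin were compared next, since a ratio taken within a library is free of the library's scale. Across all annotated hairpins with each arm at a mean of at least 1, limma on the log2 ratio of 5p to 3p called 14, or 10.5% (7.52% with more 5p in CMS), an unadjusted p under 0.05 was reached by 36.1%, and the groups did not overlap for 38.3%. Of the 4 member hairpins tested, 1 was called and the groups did not overlap for 3. The called hairpin was miR-199a, in which the 5p arm rose relative to the 3p arm in CMS.

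The 5p arm made up 16.1%, 12.9% and 14.7% of both miR-199a arms in Controls 1 to 3, and 26.6%, 24.4% and 24.0% in CMS 1 to 3. The groups were well apart, and CMS 1, which stood out in level, lay within 3 percentage points of the other CMS libraries. The mean share was 14.6% ± 1.62 in Control and 25.0% ± 1.41 in CMS. As a ratio of 5p to 3p the mean went from 0.171 ± 0.0221 to 0.334 ± 0.0253, which is 1.95-fold, and the log2 change was 0.93 ± 0.22 (limma adjusted p = 0.0277). Rounding of the deposited values does not close the gap: with every value moved by up to 0.5 in the least favourable direction, the highest Control ratio was 0.198 and the lowest CMS ratio 0.311. The log2 change lay between 0.84 and 1.02 with any 1 library left out, but the call was kept only without Control 1 (limma adjusted p = 0.0103). It was lost without Control 2 (0.104), Control 3 (0.112), CMS 1 (0.0769), CMS 2 (0.0975) or CMS 3 (0.0674), all limma adjusted p.

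In miR-145 the 5p arm also had a larger share in CMS. It held 86.3%, 83.2% and 80.1% of both arms in Control and 87.3%, 90.0% and 90.2% in CMS, so the groups did not overlap but CMS 1 lay close to Control 1. The mean ratio of 5p to 3p went from 5.10 ± 1.15 to 8.36 ± 1.29. The log2 difference of 0.72 ± 0.21 narrowly missed the threshold (limma adjusted p = 0.0567). It passed with a minimum mean of 10 per arm (limma adjusted p = 0.0343), with a pseudocount of 10 (0.0276) and without Control 1 (0.0103). It did not pass without the trend (0.0798), with a pseudocount of 0.1 (0.0743), with the replicate block (0.06) or without any other library (0.0769 without CMS 1 to 0.227 without Control 3).

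The endothelial hairpin differed in the other direction, though not past the threshold. The 5p arm of miR-126a held 12.4%, 13.0% and 12.5% of both arms in Control and 9.58%, 10.1% and 11.4% in CMS. The groups did not overlap, and the mean ratio of 3p to 5p was 6.92 ± 0.211 in Control and 8.70 ± 0.834 in CMS. The log2 difference of the ratio of 5p to 3p was -0.33 ± 0.16 (limma adjusted p = 0.168). In miR-143 the 5p arm was a trace product, at 0.384%, 0.406% and 0.493% in Control and 0.514%, 0.381% and 0.440% in CMS, and the groups overlapped (limma adjusted p = 0.804). The hairpin miR-214 could not be tested, with its 5p arm blank throughout.

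**Figure D4:**
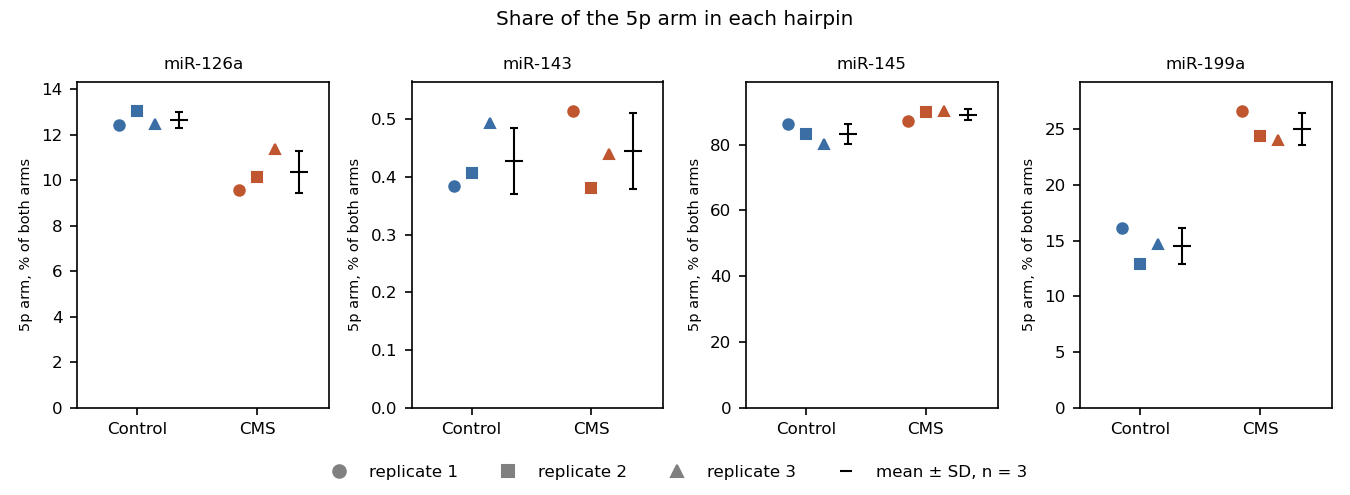
Share of the 5p arm in the summed value of both arms of a hairpin (percent, axes from 0), with replicates as symbols and the mean ± SD (n = 3) as bars. Shares are apart between groups for miR-126a (lower in CMS), miR-145 and miR-199a (higher in CMS) and overlap for miR-143.

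Which arm was the main one went with the first base of the sequences printed above. In miR-126a, miR-143 and miR-199a the abundant arm begins with U or A and the minor arm with C or G. Both arms of miR-145 begin with G. Over all 117 annotated hairpins with sequences for both arms and a mean of at least 1 in each, 54 had an A or U at the start of 1 arm and a C or G at the start of the other, and in 36 of these (66.7%) the arm with A or U was the more abundant. The 3 member hairpins of this kind follow the more common pattern, and the count is a description.

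Endothelial and mural members were also set against each other within each library. The level of miR-143-3p was 139%, 139% and 138% of that of miR-126a-3p in Controls 1 to 3 and 127%, 114% and 117% in CMS 1 to 3. The Controls varied by less than 1 percentage point around their mean of 139% ± 0.708, and all CMS libraries lay below them at 119% ± 6.68. Such a fall relative to miR-126a-3p was common: of 202 annotated miRNAs outside the set with a mean of at least 100, the ratio to miR-126a-3p was lower in CMS without overlap for 32.7%. The level of miR-145-5p was 6.83%, 4.83% and 3.84% of miR-126a-3p in Control and 7.57%, 6.25% and 7.02% in CMS, and the groups overlapped.

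The cluster mates miR-145-5p and miR-143-3p differed from each other more clearly. The level of miR-145-5p was 4.93%, 3.47% and 2.78% of that of miR-143-3p in Control and 5.96%, 5.47% and 6.01% in CMS, and every CMS library lay above every Control. The same 202 miRNAs had a ratio to miR-143-3p that was higher in CMS without overlap in 6.93% of cases. For the passenger arm miR-145-3p the ratio to miR-143-3p was 0.781%, 0.699% and 0.692% in Control and 0.867%, 0.606% and 0.654% in CMS, with overlap. Relative to miR-126a-3p, miR-199a-5p stood at 0.274%, 0.197% and 0.235% in Control and 0.631%, 0.353% and 0.382% in CMS, again apart, where 2.48% of the 202 miRNAs, all more abundant than miR-199a-5p, had a higher ratio without overlap. The main arm miR-199a-3p stood at 1.43%, 1.33% and 1.37% of miR-126a-3p in Control and 1.74%, 1.09% and 1.21% in CMS, with overlap. No p is given for these ratios, since the members were chosen with earlier results known.

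Over the main arms of the 4 mural hairpins together, the mean log2 level minus that of miR-126a-3p was -5.32, -5.80 and -5.62 in Control and -5.12, -5.33 and -5.80 in CMS. The groups overlapped, and the difference of 0.16 was smaller than the SD of 0.30 within groups. This mean includes miR-214-3p, listed at 0 in Control 2 and CMS 3.

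**Figure D5:**
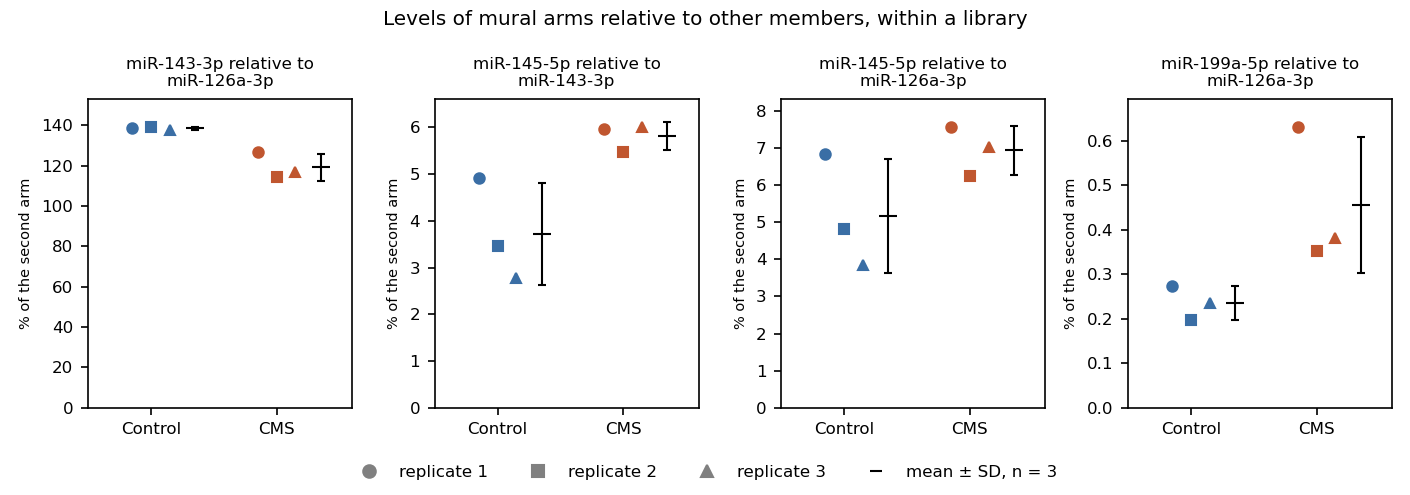
Level of a mural arm as a percentage of another member in the same library (axes from 0), with replicates as symbols and the mean ± SD (n = 3) as bars. Groups are apart for miR-143-3p relative to miR-126a-3p (lower in CMS), for miR-145-5p relative to miR-143-3p and for miR-199a-5p relative to miR-126a-3p (both higher in CMS), and overlap for miR-145-5p relative to miR-126a-3p.

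Other miRNAs linked to the vessel wall were read from the same fit, in which 4.11% of all miRNAs were called. Of 17 other endothelial and vascular arms tested, such as those of miR-221, miR-222, miR-130a and miR-23a, 1 rose (miR-23a-3p, at 645, 535 and 594 in Control and 1205, 1057 and 1230 in CMS, limma adjusted p = 0.0157) and 0 fell. At an unadjusted p under 0.05, 3 of the 17 were higher and 0 lower, against 23.3% of all miRNAs in either direction. The list had a median log2 difference of 0.19, beside 0.08 over all miRNAs, and its sum was 25222 to 29128 in Control and 30177 to 33591 in CMS, without overlap. Among all single miRNAs tested, 25.9% did not overlap between groups, and 19.6% were apart and higher in CMS. No such share was computed for sums. Of 15 other smooth muscle, fibroblast and meningeal arms tested, 2 rose, both arms of miR-490, a miRNA of smooth muscle and of the muscarinic receptor gene Chrm2, and 0 fell. The 5p arm of miR-490 was at 2, 2 and 1 in Control and 7, 8 and 11 in CMS (limma adjusted p = 0.017), and the 3p arm was at 14, 7 and 7 against 34, 26 and 40 (limma adjusted p = 0.0386). At an unadjusted p under 0.05, 5 of the 15 were higher and 0 lower, again beside 23.3% of all miRNAs in either direction. The median of that list was 0.14, beside the same 0.08 over all miRNAs, and its sum was 6374 to 6598 in Control and 6910 to 7694 in CMS. In these 3 called arms CMS 1 lay below CMS 3, unlike in the members. The sums of both lists were highest in CMS 1, as the members were. They stood at 33591, 32358 and 30177 in CMS 1 to 3 for the endothelial and vascular list. For the smooth muscle, fibroblast and meningeal list they stood at 7694, 6910 and 7428. Single arms went different ways. In CMS 1 to 3, miR-221-3p was at 9684, 13234 and 10271 and miR-222-3p at 4292, 6809 and 5087, both lowest in CMS 1. The arm miR-130a-3p, at 21, 17 and 20, was highest in CMS 1. Log2 differences were positive for 13 of the 17 arms and 9 of the 15, against 56.5% of all miRNAs.

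Finally, the 202 annotated miRNAs with a mean of at least 100 were ranked by how closely their profile over the 6 libraries followed a main arm, as the root mean square (RMS) difference of mean-centred log2 values. The nearest profiles to miR-143-3p were miR-139-5p (0.069), miR-369-5p (0.117) and miR-382-5p (0.118), where the median over all candidates was 0.323 and the endothelial member miR-126a-3p itself was at 0.118. Library by library, miR-139-5p stood at 2658, 3884 and 3564 in Control and 4878, 2881 and 3336 in CMS, with the same low Control 1 and high CMS 1 as miR-143-3p. The nearest to miR-126a-3p were miR-874-3p (0.093), miR-411-3p (0.102) and miR-409a-5p (0.104), against a median of 0.320. The nearest to miR-145-5p were miR-181a-1-3p (0.126), miR-181b-5p (0.151) and miR-150-5p (0.186), against a median of 0.498. At 0.343, miR-126a-3p was farther from miR-145-5p than these. With 6 libraries such rankings describe the profiles only.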

How the data were processed

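Per the labels' protocols, total RNA from medial prefrontal cortex of 6 rats went into miRNA libraries that were read on an Illumina NextSeq. Novoalign 2.07.11 is named in the submitters' processing notes, but the sources used here give no build, annotation or normalization method. The deposited values were treated as a score, meaning values that the authors normalized and rounded to whole numbers: library sums differ by 3.72%, and for means of 1 to 8 the variance over replicates averaged 0.471 times the mean in Control and 0.53 times in CMS, below the 1 of counted reads. Depth is therefore unknown.

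Samples were grouped by title. Members and lists were chosen with earlier results of these data known. The fits used limma 3.58.1 in R 4.3.3 with a mean-variance trend, a pseudocount of 1 and Benjamini-Hochberg adjustment over all miRNAs or hairpins tested, and were tested on simulated data. The 3 rats per group are taken as separate animals, and exact permutation of 3 against 3 was not used. Named besides the members are, per marker list, the called arms or else up to 2 with the smallest p (of the latter only those the text needs), and the 3 nearest profiles. Arms such as miR-223-3p and miR-145-3p are given as marker or member values. Alternatives were other scalings, filters, pseudocounts, no trend, annotated miRNAs only, a replicate block and leaving out each library. The miRNA sequences and neighbouring genes came from RefSeq tables of GRCr8.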

Additional observations from a re-analysis of the deposited data

How the results depend on the processing

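None of the alternatives run called a member arm by level (limma). Of 80 member levels under settings that keep all libraries, 76 kept their direction and stayed short of the threshold. The exceptions were miR-143-3p (-0.0068) and miR-145-3p (-0.050) with trimmed-mean rescaling, and miR-143-5p (-0.060) and miR-145-3p (-0.046) with quantile normalization. These scalings moved all log2 differences by a median of -0.10 and -0.12. Over the libraries left out, log2 differences ran from -0.12 to 0.15 (miR-126a-5p), -0.10 to 0.27 (miR-143-3p), -0.15 to 0.42 (miR-143-5p), -0.29 to 0.33 (miR-145-3p), -0.096 to 0.53 (miR-199a-3p) and -0.051 to 0.16 (miR-143 arm ratio). The 27 called miRNAs became 11 among annotated miRNAs only and 2 to 55 over the libraries left out. The 14 called hairpins became 27 with a minimum mean of 10 (91 hairpins tested), 8 without the trend, 33 at pseudocount 10, and between 3 and 58 when a library was left out. The 1 member hairpin became 2 with a minimum mean of 10 or a pseudocount of 10, and 0 to 2 over the libraries left out. The cause of these moves was not tested. The labels do not say that replicate numbers pair the rats. Deviations of same-numbered libraries correlated at -0.14, -0.064 and -0.00055, which with 3 libraries per group cannot settle whether they do. With the replicate block 1 miRNA and 25 hairpins were called, miR-199a among the latter (limma adjusted p = 0.0306). The mural to endothelial difference of 0.16 moved by less than the SD within groups in each alternative run (0.0092 to 0.35). Depth is unknown and could not be weighed.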
